A study of Mus musculus with 18 samples.

Results

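The spleens of mice made diabetic with streptozotocin (STZ) were compared with the spleens of controls given saline (Con) by RNA sequencing. These are 6 of the 18 libraries of the series, 3 from each group, chosen by their group labels. A gene was tested when it reached an RPKM (mapped reads divided by the length of the gene and by the size of the library) of at least 1 in at least 3 of the 6 libraries, which kept 12380 of the 19320 genes in the table. All animals were male ICR mice, an outbred stock, sampled at 10 weeks of age. Con animals had a regular diet and saline, and STZ animals had received a single dose of streptozotocin. A pair of further groups was set beside them. A10 animals received alginate oligosaccharide (AOS) at 10 mg per kg, and STZ-A10 animals received AOS at that dose and streptozotocin. No library is shared between the pairs, so STZ-A10 against A10 is the same agent in other samples, although all 18 libraries were fitted together and share the estimate of the spread. The hour of sampling and the blood glucose of the sequenced animals are not given in the sources used here.

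Streptozotocin enters the insulin-producing beta cells of the pancreas through a glucose transporter and kills them, so that glucose rises and insulin falls. The mouse spleen filters blood in its red pulp, where macrophages break down old red cells and recycle their iron, and it holds B cells and T cells in its white pulp. In mice it also makes blood cells throughout life, megakaryocytes and the platelets they release among them, and it stores platelets and myeloid cells. Insulin deficiency is known to raise the adrenal glucocorticoid hormones and to turn tissues from glucose to fatty acids. In whole spleen, fewer cells of a type and less RNA per cell cannot be told apart.

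Summed RPKM ran from 673221 to 831121 over the 6 libraries, and 12066 to 12893 genes reached an RPKM of 1. The number of reads behind a value is unknown. Correlations of log2 values across genes were 0.9485 to 0.9782 (median 0.978) within Con, 0.9619 to 0.9825 (median 0.974) within STZ and 0.9445 to 0.9756 (median 0.960) between the groups. The ranges overlapped. Globin genes took 10.4% of the summed RPKM in STZ replicate 1 and 21.5% to 35.6% in the other 5. The spleen markers Cd79a of B cells and Vcam1 of red pulp macrophages were at 508 to 971 RPKM and at 65.1 to 123 RPKM in the 6 libraries. Some Con libraries stood apart in transcripts of other cells, with neutrophil genes highest in Con replicate 1, sperm genes highest in Con replicate 2 and genes of the exocrine pancreas lowest in Con replicate 3. The values are given beside the results they touch.

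Of the 12380 genes, 22 passed the adjusted threshold of 0.05 (0.178% of those tested). Of these, 9 were higher in STZ (0.0727%) and 13 were lower (0.105%). Before adjustment, p was under 0.05 for 1286 genes, of which 576 were higher and 710 lower. The median log2 difference of all genes was -0.0083. All 22 called genes had libraries that did not overlap between the groups. Over all genes, the 3 STZ libraries were all above the 3 Con libraries for 5.81% and all below for 6.56%. Mup7, Tnp1, Orm1, Klra4, Aldh1l1, Phlda2 and Reg3b reached 1 RPKM in fewer than 3 libraries of the group where they were low. These 7 were thus tested only because of the group where they were high, so that a test of them was bound to lean towards a difference, and their calls are given as values rather than as support. Gene positions are those of GENCODE M21 on GRCm38, and the 22 genes are all protein coding. The call rests on the shared spread of all 18 libraries. A limma fit of the 6 STZ and Con libraries alone called 0 genes, with 960 at an unadjusted p under 0.05. Single libraries also decided the count, which fell to 1 on leaving out Con replicate 2, to 1 on leaving out STZ replicate 2 and to 4 on leaving out STZ replicate 1. It came to 34, 121 and 163 on leaving out Con replicate 1, Con replicate 3 and STZ replicate 3. Of the 22 genes, Tnp1 alone was kept in the first of these fits and Phlda2 alone in the second. Ass1, Cdkn1a, Ier3 and Phlda2 were kept in the third.

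In STZ-A10 against A10, 7 genes passed (0.0565%), Ass1, Epcam, Ier3, Oxct1, Pdk4 and Reg3b among them. Of the 7, Ier3, Ass1 and Reg3b were also called in STZ against Con. All 22 genes called in STZ against Con had a log2 difference of the same sign in STZ-A10 against A10, where 67.5% of all genes did. Of the 9 higher genes, 9 had every STZ-A10 library above every A10 library, beside 7.55% of all genes. Of the 13 lower genes, 9 had every STZ-A10 library below every A10 library, beside 14.8% of all genes. At an unadjusted p under 0.05 there were 17 of the 22 in that comparison, 9 of the higher and 8 of the lower. All these counts include the genes named above as tested only through the group where they were high, and for those they are no support. Tnp1 shared the sign with a difference of only -0.0038, at 0 to 0.26 RPKM in A10 and STZ-A10. The interaction of STZ and AOS, fitted with limma, called 0 genes, with 342 at an unadjusted p under 0.05, of which 8 were among the 22. The interaction contains the STZ minus Con difference by which the 22 were picked, so the count of 8 leans upward and is no support.

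**Figure D1:**
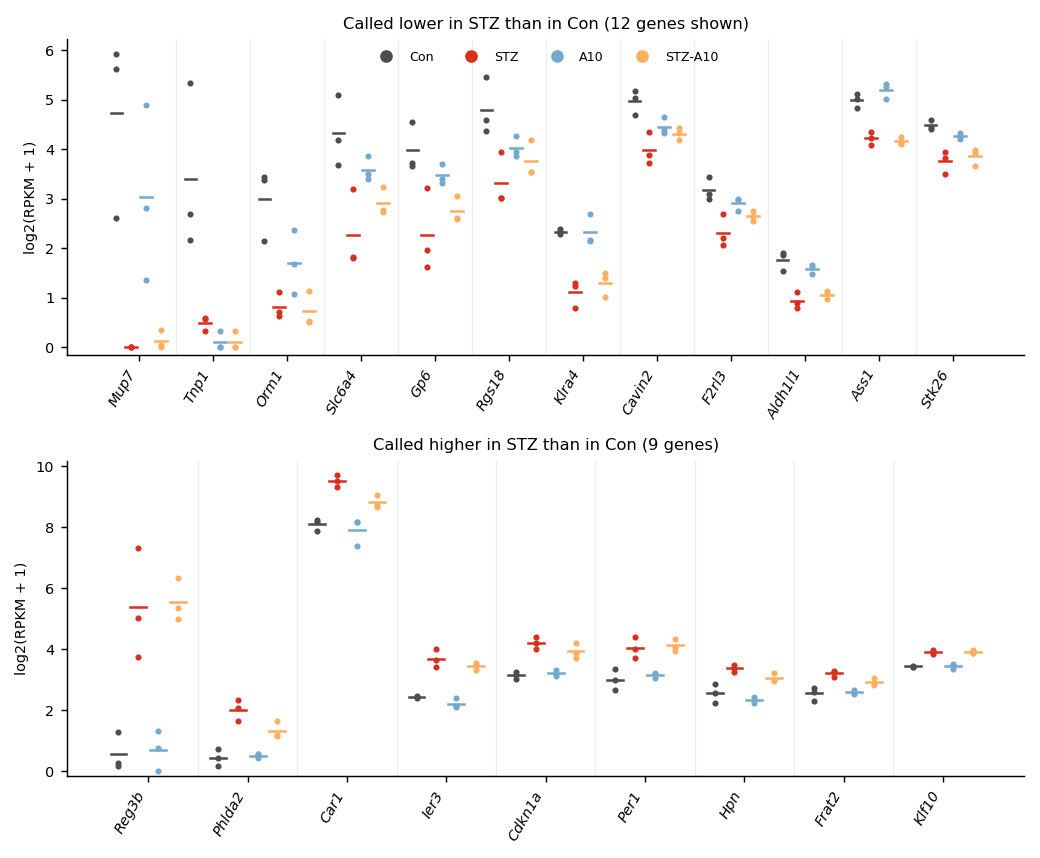
RPKM of 21 called genes, 12 lower and 9 higher, on the log2(RPKM + 1) scale. Each point is a library, each bar the mean of 3 libraries, and colours give the group. The red STZ points lie on one side of the grey Con points for all 21 genes, while Rgs18, Cavin2, Orm1 and Tnp1 overlap between A10 and STZ-A10.

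Platelet genes made up 5 of the 13 genes called lower. Platelets adhere to collagen, respond to thrombin and release serotonin and chemokines from granules, and their precursors, the megakaryocytes, sit in the red pulp. Slc6a4 (chr11:76998603-77032340, plus strand), the transporter with which platelets take up serotonin, was at 33.2, 17.4 and 11.9 RPKM in Con and at 2.52, 2.48 and 8.18 in STZ. Gp6 (chr7:4363965-4397744, minus strand), the collagen receptor, was at 22.5, 11.8 and 12.2 in Con and at 2.89, 2.07 and 8.37 in STZ. In both genes the lowest Con library was above the highest STZ library, and STZ replicate 3 was the STZ library nearest to Con. The log2 difference was -2.06 ± 0.36 (SE, adjusted p 0.0385) for Slc6a4 and -1.72 ± 0.32 (adjusted p 0.0432) for Gp6.

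F2rl3 (chr8:72761880-72763874, plus strand), the thrombin receptor PAR4, was at 9.90, 7.04 and 7.51 RPKM in Con and at 3.60, 3.19 and 5.43 in STZ, a log2 difference of -0.86 ± 0.15 (SE, adjusted p 0.0385). Rgs18 (chr1:144752683-144775435, minus strand), a regulator of G protein signals in platelets and megakaryocytes, was at 43.0, 23.0 and 19.6 in Con and at 7.12, 7.09 and 14.5 in STZ, a difference of -1.47 ± 0.28 (adjusted p 0.0485). Cavin2 (chr1:51289126-51302960, plus strand), a caveola coat protein found in platelets and endothelium, was at 35.1, 24.8 and 32.0 in Con and at 12.2, 13.8 and 19.6 in STZ, a difference of -0.98 ± 0.17 (adjusted p 0.0385). None of the 3 genes overlapped between the groups.

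In a list of 24 platelet receptors and adhesion genes, 3 were called (Slc6a4, Gp6 and F2rl3, all lower), and 23 had a negative log2 difference. Every STZ library was below every Con library for 15, beside 6.56% of all genes. The median difference of the list was -1.22. In a list of 30 granule and cytoskeleton genes, 2 were called (Rgs18 and Cavin2), 30 had a negative difference, and 22 did not overlap (beside 6.56% of all genes). Its median was -0.92. Members that were not called include the chemokines Pf4, at 897, 451 and 325 RPKM in Con and 134, 94.1 and 286 in STZ (adjusted p 0.0641), and Ppbp, at 754, 416 and 341 in Con and 86.8, 82.6 and 281 in STZ (adjusted p 0.0632). Itga2b and Itgb3, the fibrinogen receptor chains, had differences of -1.32 (adjusted p 0.121) and -1.14 (adjusted p 0.0774). Of 15 transcription factors of the megakaryocyte and erythroid lineage, 0 were called by limma, 1 was lower at an unadjusted p under 0.05, and the list median was -0.16 (0.0068 without Con replicate 1). Gata1 was at 114, 77.1 and 50.0 RPKM in Con and at 67.0, 99.0 and 95.0 in STZ. Fli1 was at 34.4, 35.7 and 46.8 in Con and at 30.8, 18.5 and 25.0 in STZ, a difference of -0.65 (adjusted p 0.346).

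In STZ-A10 against A10 the medians of the platelet lists were -0.25 and -0.19. Every STZ-A10 library was below every A10 library for 5 of 24 and 5 of 30 members, beside 14.8% of all genes. Slc6a4 was at 10.3, 13.7 and 9.53 RPKM in A10 and at 5.66, 8.50 and 5.89 in STZ-A10. The difference between both comparisons was tested as the interaction. Its unadjusted p was 0.0145 for Slc6a4, 0.0429 for Gp6, 0.00765 for Rgs18, 0.00348 for Cavin2 and 0.0136 for F2rl3, and after adjustment none passed (limma, adjusted p 0.9999 for each). These genes were picked by their STZ minus Con difference, which is a part of the interaction. Their unadjusted values thus lean low through that choice and do not show that the comparisons differ. Con replicate 1 was the highest library for the summed receptor list (829 RPKM, against 489 and 386 in the other Con libraries and 186 to 348 in STZ). The same library was highest for neutrophil granule genes, whose sum was 17827 RPKM there, 4961 and 1025 in the other Con libraries and 677 to 2074 in STZ. Without Con replicate 1 the medians of the platelet lists were -0.87 and -0.67, and none of the 5 platelet calls was left. Whether the myeloid content of that library takes part in the platelet result was not tested.

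**Figure D2:**
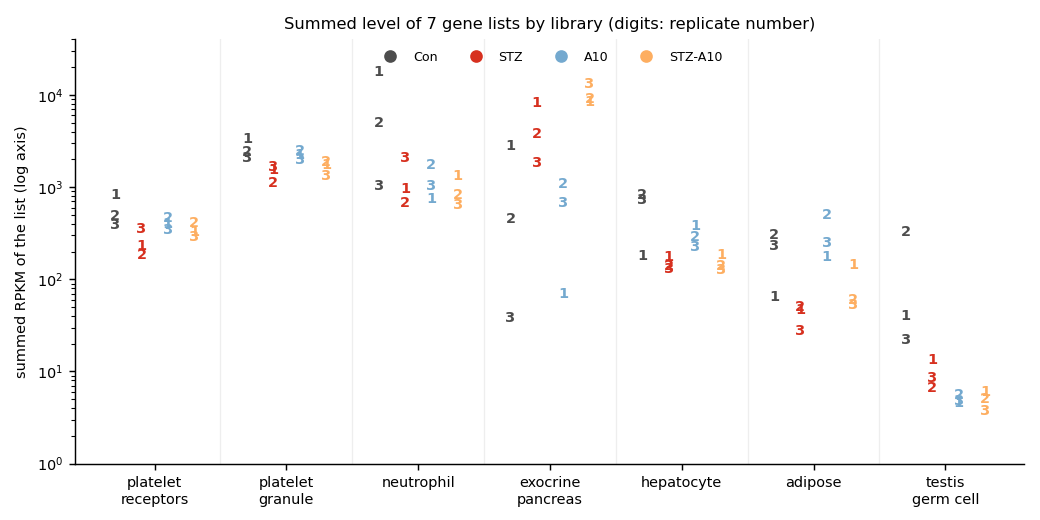
Summed RPKM of 7 gene lists in each library of Con, STZ, A10 and STZ-A10, on a log axis. Digits are replicate numbers and colours are groups. Con replicate 1 is highest for the platelet and neutrophil lists, Con replicate 2 for the sperm list, and Con replicate 3 lowest for the exocrine pancreas list.

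The start regions of platelet genes are known to be bound by GATA and ETS factors. RefSeq (GRCm38.p6) gave windows of 300 bases, 250 of them before the RefSeq start, for 44 of the platelet list members. The letters AGATAA, read on both strands, were found in 9 of their 48 windows (18.75%), beside 11.18% of all 32851 windows. CCGGAA was found in 4 (8.33%), beside 14.9%. Of the 4 called platelet genes with a window, which do not include Rgs18, Gp6 and F2rl3 held AGATAA or its reverse complement, at position -144 and position -157 from the RefSeq start, counted along the gene's strand. Their windows are shown because they are the called platelet genes with a match, which is in capitals, each read 5′ to 3′ on the strand of the gene.
Gp6 (chr7:4397695-4397994, minus strand): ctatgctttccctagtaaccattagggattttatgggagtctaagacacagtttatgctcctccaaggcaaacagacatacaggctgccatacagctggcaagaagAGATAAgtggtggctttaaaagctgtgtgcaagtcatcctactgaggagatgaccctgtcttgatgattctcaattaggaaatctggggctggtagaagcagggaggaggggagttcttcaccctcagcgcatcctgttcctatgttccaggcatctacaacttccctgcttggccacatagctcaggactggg
F2rl3 (chr8:72761409-72761708, plus strand): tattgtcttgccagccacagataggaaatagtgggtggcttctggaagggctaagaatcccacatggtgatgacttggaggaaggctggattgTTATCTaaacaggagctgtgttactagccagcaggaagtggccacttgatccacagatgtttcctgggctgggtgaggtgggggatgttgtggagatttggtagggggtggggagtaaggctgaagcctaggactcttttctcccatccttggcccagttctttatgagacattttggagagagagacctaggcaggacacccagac

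Of the 9 genes called higher, 2 are in a list of genes that glucocorticoids are known to induce, Per1 and Cdkn1a. Whether glucocorticoids take part in the differences of the genes in this list was not tested. Per1 (chr11:69095217-69109960, plus strand), a repressor of the circadian clock that glucocorticoids also switch on, was at 5.42, 7.04 and 9.14 RPKM in Con and at 15.3, 20.2 and 12.2 in STZ. Its log2 difference was 1.04 ± 0.18 (SE, adjusted p 0.0385). Cdkn1a (chr17:29090976-29100727, plus strand), which encodes the cell cycle inhibitor p21, was at 8.01, 8.61 and 7.12 in Con and at 15.2, 20.0 and 17.7 in STZ, a difference of 1.06 ± 0.16 (adjusted p 0.0257). Both had the same pattern in the animals given AOS. Per1 was at 8.17, 7.41 and 8.32 in A10 and at 16.0, 14.4 and 19.4 in STZ-A10, and Cdkn1a was at 7.69, 9.03 and 8.20 in A10 and at 12.2, 13.8 and 17.3 in STZ-A10. The interaction was 0.08 ± 0.25 for Per1 and 0.34 ± 0.23 for Cdkn1a.

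Of the 22 genes of the glucocorticoid-induced list, 20 were tested and 19 had a positive difference. Some members are in other lists too, such as Pdk4 (fatty acid oxidation), Cd163 and Mertk (red pulp macrophages) and Dusp1 (immediate early genes). Every STZ library was above every Con library for 8, beside 5.81% of all genes. The median difference was 0.75, the highest of 28 lists of spleen cells and pathways, which leave out the Reg family described with the pancreas. In STZ-A10 against A10 the median was 0.74, and 14 members had every STZ-A10 library above every A10 library, beside 7.55% of all genes. Members that were not called in STZ against Con include Fkbp5, the co-chaperone of the glucocorticoid receptor, at 8.82, 9.93 and 9.56 RPKM in Con and 23.7, 31.9 and 12.8 in STZ (adjusted p 0.0866). The metallothionein Mt2 was at 104, 80.6 and 57.4 in Con and at 318, 240 and 193 in STZ (adjusted p 0.0514). Errfi1, an inhibitor of the EGF receptor, was at 5.01, 8.77 and 12.3 in Con and at 19.7, 27.2 and 61.7 in STZ (adjusted p 0.0570). In these 3 genes too the groups did not overlap. Tsc22d3, which encodes the glucocorticoid-induced leucine zipper, overlapped in STZ against Con (43.1, 73.5 and 106 in Con and 104, 103 and 88.6 in STZ, adjusted p 0.545), while in the AOS animals every STZ-A10 library was above every A10 library. Bcl6 was the 1 member with a negative difference, -0.57 (adjusted p 0.470). Of the 2 members under the filter, Zbtb16 was at 0.36 to 0.51 RPKM in Con and 0.64 to 1.46 in STZ, and Hif3a at 0.14 to 0.21 in Con and 0.79 to 2.62 in STZ. The median of the list was 0.56 on leaving out STZ replicate 2 and 1.00 on leaving out STZ replicate 3, the lowest and highest of the 6 such values.

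**Figure D3:**
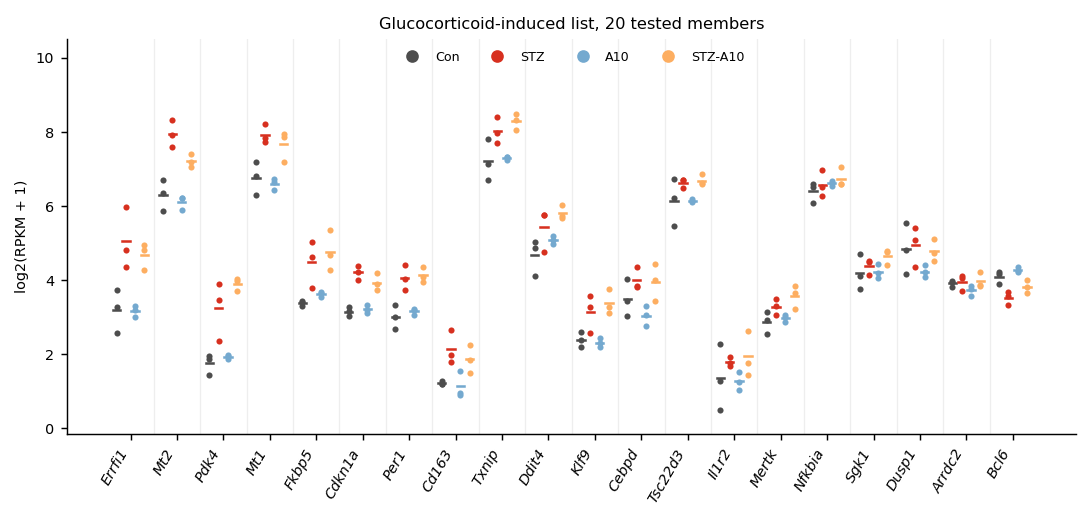
The 20 tested members of the glucocorticoid-induced list on the log2(RPKM + 1) scale, ordered by the STZ minus Con difference. Each point is a library and each bar the mean of 3. From Errfi1 to Cd163 every STZ point is above every Con point, and Bcl6, at the right, is the 1 member lower in STZ.

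Per1 is also a clock gene, and the other clock genes were read for that reason. Nr1d1, the repressor REV-ERB alpha, was at 1.61, 1.99 and 2.13 RPKM in Con and at 10.6, 8.95 and 2.49 in STZ (adjusted p 0.154). Dbp, an output gene of the clock, was at 4.89, 7.12 and 7.15 in Con and at 21.2, 7.68 and 3.69 in STZ (adjusted p 0.851). STZ replicate 1 was the highest library for both. The activator Arntl was at 5.29, 9.10 and 10.7 in Con and at 6.89, 6.64 and 7.27 in STZ. Of 17 tested clock genes, only Per1 was called. The median of the list was 0.25, and -0.027 without STZ replicate 1. Since the hour of sampling is unknown here, a difference in hour and a difference in treatment cannot be told apart for these genes.

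CACGTG, the E-box that clock proteins and MYC bind, stood in 1 of the 2 RefSeq windows of Per1, at position -166. Both windows of Per1 lie inside the gene span given above. The letters also stood in the window of Ass1, a lower gene described below, at position -36. These 2 were the matches among 17 called genes with a window, and 7.15% of all windows hold the letters. The element that the glucocorticoid receptor binds, searched as GNACA and TGTNC with any 3 bases between, was found in 0 of the 20 windows of called genes and in 0.47% of all windows. The windows of Per1 and Ass1 with the E-box in capitals are shown because one gene rose and the other fell.
Per1 (chr11:69098699-69098998, plus strand): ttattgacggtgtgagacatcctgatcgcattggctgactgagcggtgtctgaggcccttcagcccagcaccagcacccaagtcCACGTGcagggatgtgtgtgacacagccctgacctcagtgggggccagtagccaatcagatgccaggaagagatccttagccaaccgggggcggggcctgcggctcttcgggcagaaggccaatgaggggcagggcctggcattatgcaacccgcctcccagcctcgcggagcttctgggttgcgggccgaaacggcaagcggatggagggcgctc
Ass1 (chr2:31470020-31470319, plus strand): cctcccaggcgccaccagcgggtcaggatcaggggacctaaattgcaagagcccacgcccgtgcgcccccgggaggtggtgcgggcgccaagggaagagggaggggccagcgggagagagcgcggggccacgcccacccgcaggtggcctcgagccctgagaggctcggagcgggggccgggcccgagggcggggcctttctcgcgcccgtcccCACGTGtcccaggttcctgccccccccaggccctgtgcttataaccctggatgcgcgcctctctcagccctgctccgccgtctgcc

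The gene with the smallest adjusted p among those with an RPKM above 1 in both groups was Ier3 (chr17:35821684-35822923, plus strand), an immediate early gene that stress and cytokines induce. It was at 4.28, 4.46 and 4.54 RPKM in Con and at 9.71, 15 and 11.6 in STZ, a log2 difference of 1.25 ± 0.17 (SE, adjusted p 0.0112). In the AOS animals it was at 3.41, 4.30 and 3.32 in A10 and at 9.04, 10.7 and 10.1 in STZ-A10, a difference of 1.23 ± 0.17 (adjusted p 0.0138). The size was thus close in both pairs, with an interaction of 0.02 ± 0.24. Klf10 (chr15:38291463-38300706, minus strand), a zinc finger gene that TGF-beta induces, was at 9.77, 9.80 and 10.1 in Con and at 14.9, 13.5 and 14.1 in STZ, a difference of 0.48 ± 0.09 (adjusted p 0.0485). Most other immediate early genes overlapped between the groups. Of 25 tested, 2 were called, Ier3 and Klf10, and the median was 0.04 (-0.13 without STZ replicate 3 and 0.20 without Con replicate 3). Egr1 was at 8.34, 7.66 and 41.2 in Con and at 9.80, 26.1 and 36.5 in STZ, and Jun at 6.28, 9.28 and 22.8 in Con and at 3.27, 5.75 and 13.6 in STZ. Myc, whose groups did not overlap, was at 26.2, 28.9 and 37.6 in Con and at 66.2, 52.8 and 48.2 in STZ (adjusted p 0.0617).

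Cdkn1a is a target of p53 as well, and it was the 1 gene called among 22 tested p53 genes. The p53 inhibitor Mdm2 did not pass (29.5, 32.5 and 32.9 RPKM in Con and 27.9, 25.8 and 28.7 in STZ, adjusted p 0.467), with every STZ library below Con. Ccng1, a cyclin, was at 39.8, 40.4 and 47.4 in Con and at 37.6, 30.6 and 40.9 in STZ. The median of the list was 0.06 (0.0061 without Con replicate 1 and 0.12 without Con replicate 3).

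Phlda2 (chr7:143501545-143503150, minus strand), an imprinted gene known from the placenta, was at 0.68, 0.35 and 0.12 RPKM in Con and at 4.12, 2.16 and 3.18 in STZ. The log2 difference was 1.58 ± 0.21 (SE, adjusted p 0.0112), and Phlda2 passed the filter only through STZ, its level in Con being under 1 RPKM. Phlda2 was at 0.35 to 0.48 in A10 and at 1.26 to 2.11 in STZ-A10. Hpn (chr7:31098725-31115290, minus strand), the membrane serine protease hepsin, was at 6.33, 4.93 and 3.72 in Con and at 9.51, 10.22 and 8.56 in STZ, a difference of 0.82 ± 0.15 (adjusted p 0.0432). Frat2 (chr19:41845972-41848132, minus strand), an activator of Wnt signalling that binds GSK3, was at 5.71, 3.99 and 5.06 in Con and at 8.78, 7.55 and 8.62 in STZ, a difference of 0.66 ± 0.12 (adjusted p 0.0432). All 3 genes also had every STZ-A10 library above every A10 library.

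**Figure D4:**
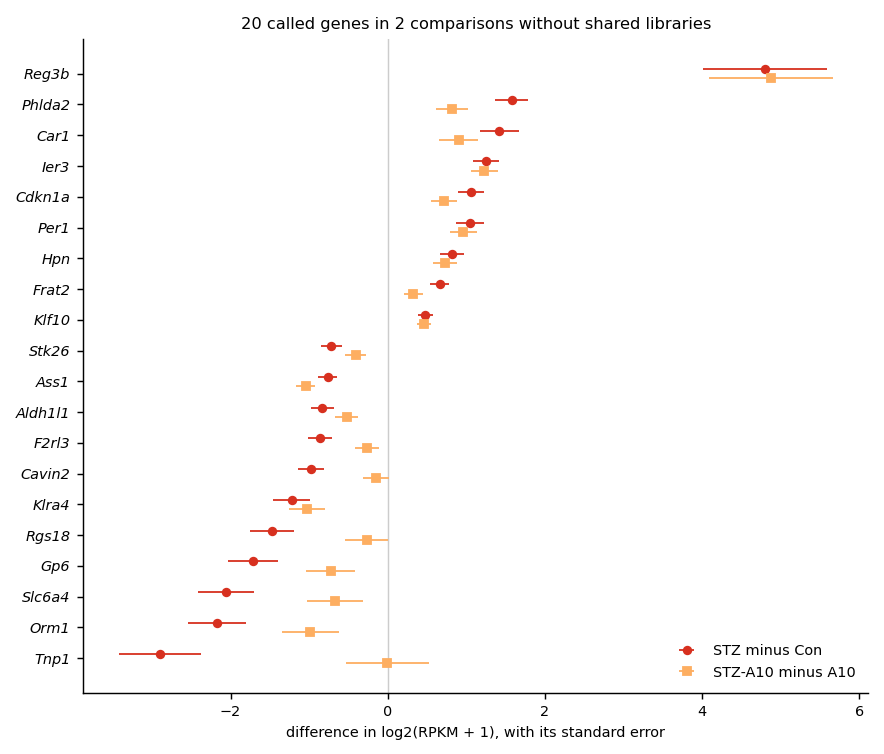
Differences in log2(RPKM + 1) with their standard errors for 20 called genes, in STZ minus Con and in STZ-A10 minus A10. Mup7 is left out because it was listed at 0 in STZ. Ier3, Klf10, Per1 and Reg3b lie at nearly the same place in both, while Tnp1 and the platelet genes are nearer 0 in STZ-A10 minus A10.

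Among the genes called lower were Ass1 and Aldh1l1, enzymes of metabolism. Ass1 (chr2:31470207-31520672, plus strand), argininosuccinate synthase, which makes arginine from citrulline, was at 27.4, 33.6 and 31.6 RPKM in Con and at 19.5, 16.0 and 17.8 in STZ, a log2 difference of -0.76 ± 0.12 (SE, adjusted p 0.0257). In the AOS animals it was at 37.4, 31.6 and 39.2 in A10 and at 17.99, 16.4 and 16.3 in STZ-A10, a difference of -1.05 ± 0.12 (adjusted p 0.00274). Aldh1l1 (chr6:90486427-90600203, plus strand), a folate enzyme, was at 1.90, 2.75 and 2.65 in Con and at 0.74, 0.85 and 1.18 in STZ, a difference of -0.83 ± 0.15 (adjusted p 0.0385). In neither gene did STZ and Con overlap, nor did A10 and STZ-A10. Whether the liver transcripts described below take part in the differences of Ass1 and Aldh1l1 was not tested. Of the 26 genes of the cholesterol and fatty acid synthesis list, 23 had a negative difference. Every STZ library was below every Con library for 3, beside 6.56% of all genes. The median was -0.14 (-0.22 without Con replicate 1 and -0.071 without STZ replicate 3). In STZ-A10 against A10 the median was -0.31, and 12 members lay below without overlap, beside 14.8% of all genes. Cyp51 was at 8.54, 9.64 and 8.04 in Con and 6.82, 6.17 and 6.96 in STZ (adjusted p 0.362), whereas Sqle was above Con in every STZ library (adjusted p 0.732).

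Of 22 tested genes of fatty acid oxidation, limma called 0 in STZ against Con, with 7 higher at an unadjusted p under 0.05. Pdk4, the kinase that shuts pyruvate out of the mitochondrion, was at 1.71, 2.88 and 2.65 RPKM in Con and at 10.1, 13.9 and 4.13 in STZ (adjusted p 0.0617). It passed in STZ-A10 against A10, with 2.67, 2.97 and 2.86 in A10 and 14.7, 12.1 and 15.3 in STZ-A10, a log2 difference of 1.97 (adjusted p 0.0306). Acot1, an acyl-CoA thioesterase, was at 1.39, 1.77 and 1.81 in Con and at 5.67, 4.08 and 4.27 in STZ (adjusted p 0.0684). Of the list, 6 had every STZ library above every Con library (beside 5.81% of all genes) and none below (beside 6.56%). The median difference of the list was 0.165, and Cpt1a and Acadm, at 0.14 and -0.05, were near 0. Oxct1, which uses ketone bodies, was called lower in STZ-A10 against A10 and was at 34.2, 35.4 and 32.2 in Con and 23.8, 19.6 and 24.2 in STZ (adjusted p 0.0514).

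Of 26 genes of insulin and growth factor signalling, limma called 0, with 3 higher and 2 lower at an unadjusted p under 0.05. Txnip, a glucose-induced arrestin that is also in the glucocorticoid list, was at 103, 140 and 225 RPKM in Con and at 337, 253 and 206 in STZ (adjusted p 0.252). Irs2, a docking protein of the insulin receptor that insulin represses, was at 3.99, 3.80 and 5.58 in Con and at 5.92, 6.05 and 6.55 in STZ (adjusted p 0.391), without overlap. Insr and Foxo1 had differences of -0.06 and -0.28. The median of the list was -0.01 (0.03 without Con replicate 3). In glycolysis, 0 of 20 genes were called (1 higher and 4 lower before adjustment), 17 had a negative difference, and the median was -0.16 (-0.31 on leaving out STZ replicate 1, and -0.064 on leaving out STZ replicate 3). Hexokinase 2 (Hk2) was at 3.08, 2.35 and 1.73 in Con and at 1.61, 1.35 and 1.35 in STZ (adjusted p 0.288).

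The integrated stress response, in which the factor ATF4 switches on amino acid synthesis and transport, had 0 of 18 genes called by limma and 9 higher at an unadjusted p under 0.05. All 18 had a positive difference, 8 had every STZ library above every Con library (beside 5.81% of all genes), and the median was 0.39. Trib3, an ATF4 target, was at 0.93, 1.60 and 0.64 RPKM in Con and at 5.74, 3.36 and 2.40 in STZ, and with an adjusted p of 0.0502 it was the uncalled gene nearest to the threshold. Trib3 reached 1 RPKM in fewer than 3 Con libraries. It was thus tested only because of STZ, where it was high, and is given as a value rather than as support. Asns, asparagine synthetase, was at 54.9, 40.9 and 31.3 in Con and at 86.9, 94.7 and 86.2 in STZ (adjusted p 0.119). Shmt2, a mitochondrial serine enzyme, was at 47.2, 46.1 and 40.7 in Con and at 82.6, 76.1 and 66.1 in STZ (adjusted p 0.0655). The transcript of Atf4 itself overlapped (difference 0.08). Without each library in turn the median stayed between 0.34 and 0.45. In STZ-A10 against A10 it was 0.17, with 12 of 18 genes positive.

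Red pulp macrophages, which take up hemoglobin and export iron, had 0 of 27 tested genes called by limma and 14 higher at an unadjusted p under 0.05. Of the 27, 25 had a positive difference and 11 had every STZ library above every Con library, beside 5.81% of all genes. The median was 0.34, and 0.30 in STZ-A10 against A10. Vcam1 was at 65.1, 79.7 and 100 RPKM in Con and at 117, 123 and 122 in STZ (adjusted p 0.1998). Spic, the transcription factor of these cells, was at 39.9, 36.5 and 48.7 in Con and at 58.6, 50.6 and 49.4 in STZ (adjusted p 0.336). C1qa, a complement subunit that they make, was at 103, 97.0 and 119 in Con and at 148, 166 and 138 in STZ (adjusted p 0.336). The iron exporter Slc40a1, the heme oxygenase Hmox1 and the pan-macrophage marker Adgre1 overlapped, with differences of 0.27, 0.24 and 0.09.

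Car1 (chr3:14766216-14808368, minus strand), the carbonic anhydrase of red cells and their precursors, was called higher. It was at 288, 304 and 233 RPKM in Con and at 734, 829 and 643 in STZ, a log2 difference of 1.42 ± 0.25 (SE, adjusted p 0.0385). With AOS it was at 290, 285 and 167 in A10 and at 422, 537 and 402 in STZ-A10. It was the 1 gene called among 34 tested erythroid genes, of which 14 had a positive and 20 a negative difference. Alas2, the first enzyme of heme synthesis in red cells, was at 862, 596 and 468 in Con and at 217, 774 and 896 in STZ. STZ replicate 1, the library with the lowest globin share, was low for most of these genes but not for Car1. The median of the erythroid list was -0.07, and 0.47 without that library.

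On the side of lymphocytes, Klra4 (chr6:130043731-130067271, minus strand), an activating receptor of natural killer (NK) cells, was called lower. It was at 4.08, 4.23 and 3.87 RPKM in Con and at 1.37, 0.74 and 1.46 in STZ, a log2 difference of -1.22 ± 0.23 (SE, adjusted p 0.0493), and at 3.51, 3.43 and 5.45 in A10 and 1.85, 1.01 and 1.64 in STZ-A10. Klra genes are near-identical copies whose reads may be split between them, so this level is uncertain. The NK and cytotoxic list does not hold Klra4. Of its 19 tested genes, 0 were called by limma, 5 were lower at an unadjusted p under 0.05, and 19 had a negative difference. Every STZ library was below every Con library for 6, beside 6.56% of all genes. The median was -0.36 (-0.21 without Con replicate 3 and -0.54 without STZ replicate 1). It was -0.49 in STZ-A10 against A10, where 10 lay below without overlap, beside 14.8% of all genes. Gzma, a granule protease, was at 27.2, 35.8 and 52.8 in Con and at 19.7, 8.12 and 21.1 in STZ (adjusted p 0.145). Ncr1, the NK receptor NKp46, was at 8.14, 8.49 and 12.6 in Con and at 6.04, 5.37 and 5.28 in STZ (adjusted p 0.187). Klrb1c, Prf1 and Gzmb overlapped in STZ against Con. Stk26 (chrX:50841047-50893097, plus strand), a kinase of the germinal center kinase family, was also called lower, at 20.8, 20.3 and 23.2 in Con and 14.5, 10.4 and 13.3 in STZ, a difference of -0.72 ± 0.13 (adjusted p 0.0432).

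The other 4 called genes are made mainly outside the spleen, and transcripts of those organs are given beside them. Mup7 (chr4:60066469-60070475, minus strand), a major urinary protein of the liver, was at 5.15, 59.8 and 48.6 RPKM in Con and was listed at 0 in all 3 STZ libraries (adjusted p 0.0385), so that it passed the filter only through Con. The Mup genes are close copies, so its level is uncertain. Orm1 (chr4:63344560-63348163, plus strand), an acute phase protein, was at 9.93, 9.38 and 3.45 in Con and at 0.55, 0.64 and 1.16 in STZ, a log2 difference of -2.17 ± 0.37 (SE, adjusted p 0.0385). In the hepatocyte list, 16 of 36 genes were tested, 2 were called (Mup7 and Orm1), and 14 had a negative difference. Every STZ library was below every Con library for 9, beside 6.56% of all genes. Members such as Mup7, Orm1 and the albumin gene passed the filter only through Con, so these counts lean towards lower values in STZ. The list median was -2.28, and -0.78 with an RPKM of at least 1 in all 6 libraries. The summed level of the list was 179, 813 and 717 in Con and 131 to 173 in STZ. Within Con, Orm1 did not follow this sum, being highest in replicate 1, where the sum was lowest. Albumin (Alb) was at 7.59, 105 and 97.9 in Con and at 0.32, 1.45 and 0.95 in STZ (adjusted p 0.0617). In the AOS animals the sum was 223 to 375 in A10 and 127 to 184 in STZ-A10, and Mup7 was at 28.9, 6.08 and 1.58 in A10 and at 0 to 0.27 in STZ-A10. Fat transcripts varied in a like manner. The summed adipose list was 64.2, 301 and 228 in Con, 27.5 to 50.7 in STZ, 175 to 493 in A10 and 52.2 to 142 in STZ-A10. Adiponectin (Adipoq) was at 1.58, 9.81 and 9.13 in Con and at 0.24 to 0.73 in STZ (adjusted p 0.193), so it too passed the filter only through Con. The median of the adipose list was -1.66, and -0.96 with an RPKM of at least 1 in all 6 libraries. The part of liver and fat tissue in these differences was not tested.

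Tnp1 (chr1:73015074-73015909, minus strand), a nuclear protein of maturing sperm, was at 5.44, 39.5 and 3.47 RPKM in Con and at 0.51, 0.25 and 0.49 in STZ, a log2 difference of -2.90 ± 0.53 (SE, adjusted p 0.0432). With AOS it was at 0 to 0.26 in both groups. Prm1, Prm2 and Tnp2, which pack sperm DNA, were also highest in Con replicate 2, at 85.6, 55.0 and 70.9, and the summed list of sperm genes was 40.4, 330 and 22.2 in Con, 6.62 to 13.2 in STZ, 4.55 to 5.56 in A10 and 3.73 to 5.92 in STZ-A10. All 3 Con libraries were thus above every library of the other 3 groups. Tnp1 passed the filter only through Con, and without Con replicate 2 its difference was -1.93. Whether sperm RNA entered the Con libraries was not tested.

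Reg3b (chr6:78370657-78373466, plus strand), a lectin made by the gut and the stressed pancreas, was at 1.42, 0.22 and 0.12 RPKM in Con and at 160, 32.0 and 12.4 in STZ, a log2 difference of 4.80 ± 0.78 (SE, adjusted p 0.0366). In the AOS animals it was at 0, 1.48 and 0.69 in A10 and at 31.2, 39.9 and 79.9 in STZ-A10, a difference of 4.88 (adjusted p 0.0306). Without STZ replicate 1 the STZ minus Con difference was 3.82. Of 6 Reg genes, 5 were tested, and Reg3b and Reg3a were above Con in every STZ library. Genes of the exocrine pancreas varied alongside it. All 27 had a positive difference, 3 did not overlap (beside 5.81% of all genes), 10 were higher at an unadjusted p under 0.05, and limma called 0. Their median was 2.74 (1.37 without Con replicate 3 and 4.15 without Con replicate 1), and 2.21 with an RPKM of at least 1 in all 6 libraries. Members low in Con could pass the filter through STZ alone, so these counts may lean towards higher values in STZ. The sum of the 27 genes was 2778, 453 and 38.5 in Con, 8180, 3807 and 1823 in STZ, 69.5, 1079 and 666 in A10 and 8298, 8927 and 13084 in STZ-A10. In STZ-A10 against A10 all 27 lay above without overlap, beside 7.55% of all genes. Con replicate 1 held a larger pancreatic sum than STZ replicate 3 and a lower Reg3b level. The insulin genes Ins1 and Ins2 were listed at 0 in all 6 libraries, the glucagon gene Gcg was at 0 to 0.07 RPKM, and 14 islet genes summed to 0.32 to 0.64 RPKM. The part of pancreatic tissue in the Reg3b difference was not tested.

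**Figure D5:**
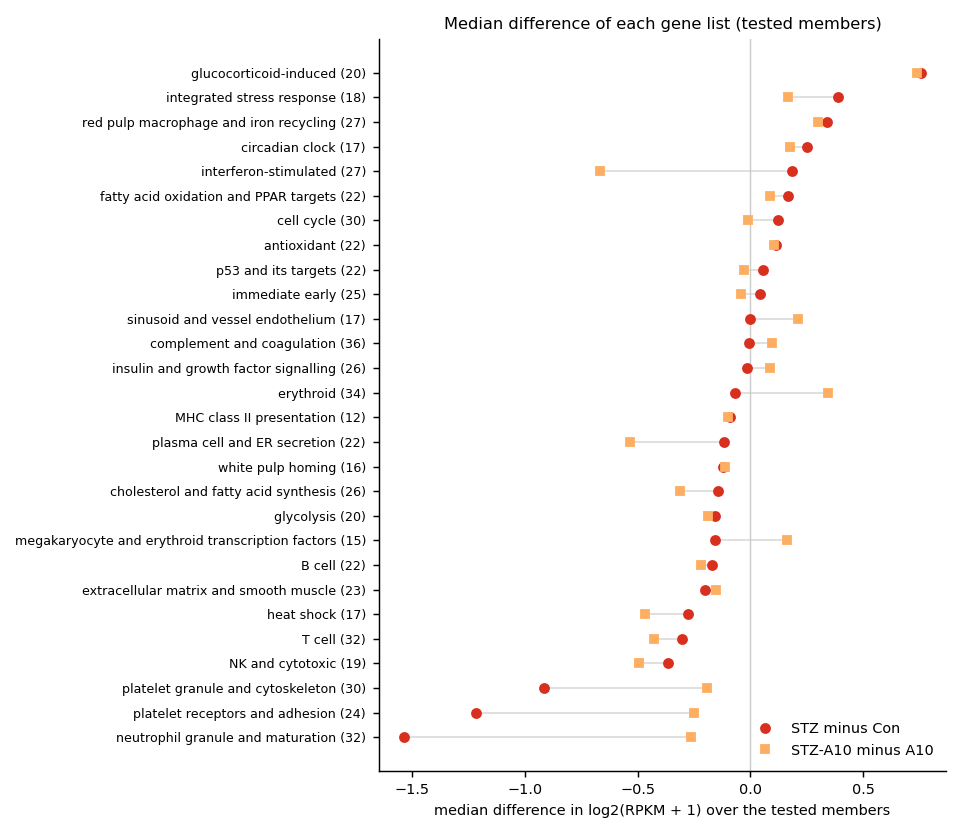
Median difference in log2(RPKM + 1) of 28 gene lists of spleen cells and pathways, the Reg family left out, over the tested members given in brackets. Red circles are STZ minus Con and orange squares STZ-A10 minus A10. The glucocorticoid-induced list is highest in both, at 0.75 and 0.74, and the platelet receptor, platelet granule and neutrophil lists are at -1.22, -0.92 and -1.53 in STZ minus Con and at -0.25, -0.19 and -0.26 in STZ-A10 minus A10.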

How the data were processed

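Poly(A)-enriched spleen RNA was sequenced on an Illumina HiSeq 2500. The authors deposited 1 table of RPKM values with 18 columns, 3 for each of 6 groups, and 0 columns were left without a sample. The study's methods name SOAPaligner against reference genes, while the submitters' processing notes name Bowtie 0.12.2 and mm10. The annotation version and the read counts are not given in the sources used here, so no depth and no counting interval can be given. Of 19326 lines, 6 with 3 repeated names were left out.

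Values were put on the log2(RPKM + 1) scale and fitted by limma 3.58.1 with a mean-variance trend under R 4.3.3, using 1 coefficient per group in all 18 libraries (12 residual degrees of freedom). The test and the filter of 1 RPKM in 3 of 6 libraries differ from the study's DEGseq, which needs counts. P-values are two-sided and Benjamini-Hochberg adjusted over 12380 genes, with a threshold of 0.05. They rest on the spread between the 3 libraries within a group, pooled over the 6 groups and all 18 libraries. The labels do not tie libraries to single animals, and this spread may be technical in part. Fold changes are on the log2(RPKM + 1) scale, which understates those of low genes. The method was tested on simulated data with independent genes and the same spread in every library. Such data lack the shifts that many genes of a real library share, so that test cannot check the calls against them. Named are the called genes, the key genes of each list and the members with the smallest p, and a few genes that meet this rule are not reported here. Oxct1 and the lists' other examples were chosen after their values were seen. Lists were written from general knowledge, and members and lists were chosen with earlier results of these data known. Lists are described by counts and medians, with no set test. Gene positions are from GENCODE M21 and motifs from RefSeq windows. Samples were not treated as paired by replicate number. Alternatives were other spreads, weights, normalizations, pseudocounts and filters, a replicate block and leaving out each library of STZ and Con.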

Additional observations from a re-analysis of the deposited data

How the results depend on the processing

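The calls depend on the processing, while no alternative that gave a value turned the direction of any of the 22 genes. For 7 of them, those named in the report as tested only through 1 group, an RPKM of at least 1 in all 6 libraries left no value. Counts called in STZ against Con, then higher and lower, were 0, 0 and 0 with the 6 libraries alone, 9, 4 and 5 with quantile normalization, 8, 3 and 5 with RPKM rescaled without globin genes, 39, 15 and 24 with a pseudocount of 0.1, 9, 5 and 4 with no filter on low values, 8, 4 and 4 with an RPKM of at least 1 in all 6 libraries, and 7732, 3002 and 4730 with array weights, whose estimation did not converge. Centring libraries on their median gave 16, of which 5 were higher, and a log2 difference of at least 1 gave 13. Leaving out a library gave 1 to 163 in all, 0 to 69 higher and 0 to 106 lower. With the replicate number as a block the counts were 3, 3 and 0 (Ier3, Phlda2 and Frat2). Same-numbered Con and STZ libraries deviated from their group means with correlations of -0.168, -0.0282 and -0.0089 across the tested genes. No sample correlated best with its own number. Whether same-numbered libraries share a batch or an order of handling was not tested. STZ-A10 against A10 called 3738 with array weights, 27 with quantile normalization, 28 after centring, 25 without globin genes, 3 with a pseudocount of 0.1, 4 without a filter, 4 with the block and 7 to 29 without a library of STZ or Con. The interaction called 2041 with array weights and 0 otherwise. The cause of these changes was not tested. Ier3 stayed past the threshold in 13 of 16 alternatives and Ass1 in 12 of 16. Phlda2 did so in 13 of 15, but it was tested only because of STZ, so its count is no support. With unknown depth, the levels of the 7 genes tested only through 1 group are the least certain.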

Other observations

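Neutrophil granule genes had the lowest median of the lists of spleen cells, -1.53 over 32 genes. Of these, 30 were negative, 25 were lower at an unadjusted p under 0.05 and 0 were called by limma. There were 3 without overlap, beside 6.56% of all genes. S100a8, a subunit of calprotectin, was at 5154, 1315 and 276 RPKM in Con and at 210, 128 and 567 in STZ, and the lactoferrin gene Ltf at 397, 116 and 20.1 in Con and 15.1, 6.51 and 41.4 in STZ. Con replicate 3 lay among the STZ libraries. The median was -0.75 without Con replicate 1, -2.27 without Con replicate 3, and -0.26 in STZ-A10 against A10. Of 17 heat shock genes, all with a negative difference, 1 did not overlap between STZ and Con, beside 6.56% of all genes. The median of -0.28 was -0.66 without STZ replicate 3 and -0.06 without Con replicate 3. Hspa1b was at 15.4, 51.3 and 141 RPKM in Con and at 1.30, 4.68 and 79.1 in STZ (adjusted p 0.493). In the other pair it was at 14.6, 17.1 and 28.7 in A10 and 3.61, 3.88 and 7.63 in STZ-A10. There 12 of 17 members lay below without overlap, beside 14.8% of all genes.

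Lymphocyte lists had 0 limma calls in STZ against Con, with 0 T cell, 1 B cell and 2 plasma cell genes at an unadjusted p under 0.05. No direction is read from the medians, since leaving out 1 library moved them from -0.55 (Con replicate 1) to -0.16 (Con replicate 3) for T cells, from -0.43 (STZ replicate 1) to -0.03 (STZ replicate 2) for B cells, and across 0 for plasma cell, MHC class II and white pulp homing genes. The medians over all 6 libraries were -0.30 for T cells, -0.17 for B cells, -0.12 for plasma cells and -0.09 for MHC class II genes, beside -0.43, -0.22, -0.53 and -0.10 in STZ-A10 against A10, and -0.12 for white pulp homing genes. Cd3e, a chain of the T cell receptor complex, was at 17.3, 29.2 and 34.0 RPKM in Con and at 28.5, 15.8 and 18.4 in STZ. Interferon-stimulated genes differed in sign between the comparisons, with medians of 0.19 and -0.67. The first was 0.02 without STZ replicate 3 and 0.30 without Con replicate 1, and the difference was not tested over the list. The sum of the list was 1470, 966 and 3132 RPKM in A10 and 779 to 1176 in STZ-A10, so that A10 replicate 3 stood apart. No fit left out an A10 library. Cell cycle genes had a median of 0.12, with 27 of 30 positive and 0 without overlap, and the median was -0.06 without Con replicate 3 and 0.36 without STZ replicate 1. The remaining medians were 0.12 for antioxidant genes, -0.01 for complement and coagulation, -0.003 for endothelium and -0.20 for extracellular matrix and smooth muscle, with 0 limma calls in each. Leaving out 1 library moved these medians to between 0.03 and 0.18, -0.15 and 0.06, -0.14 and 0.13, and -0.31 and -0.04. At an unadjusted p under 0.05, 4 of 36 complement and coagulation genes were higher and 10 lower, beside 1286 of all 12380 genes in either direction. The antioxidant list had 2 higher, the endothelial list 1 lower, and the matrix and smooth muscle list 2 higher and 6 lower.

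The beta globin genes differed widely between libraries of a group. Hbb-bs was at 1914, 16795 and 21592 RPKM in Con, at 7588, 267 and 16417 in STZ and at 5.61 to 102 in STZ-A10. These genes are close copies whose reads may be split between them, so the level of each is uncertain.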
